A study of Homo sapiens with 2 samples.

Results

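The genes described are those of the proteins of the cytoplasmic ribosome. A probe was taken as a member when its RefSeq mRNA accession led to a symbol made of RPL or RPS, digits and an optional A or X, or to RPLP0, RPLP1, RPLP2 or RPSA. The rule left out the ribosomal S6 kinases and the genes whose symbols mark them as ribosomal protein paralogs, and it used no measured value. It found 77 genes, 46 of the large and 31 of the small subunit, among 19061 named genes on the array, and these 77 genes had 150 probes and 204 spots.

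RNA of SBC-3 cells, an established line of small-cell lung cancer (SCLC), was measured on 2 one-colour arrays. The cells of 1 array had been transfected with #1 siHOTAIR, a small interfering RNA against the long noncoding RNA HOTAIR, and those of the other with siGFP, which targets a green fluorescent protein and served as the control. The labels give no other treatment, and the time of RNA extraction was not given in the sources used here. Each condition had a single array and no replicate, so that no test could be made and the siRNA, the culture and the array cannot be told apart. Every ratio below is #1 siHOTAIR over siGFP on the log2 scale after each array was divided by the 75th percentile of its own spots (650.3 and 629.9 intensity units), whereas signals are given before that division. The value after ± is the SD of a ratio, estimated from probes of like signal with many repeated spots on an array. It is not the spread of the gene's own spots. It covers the measurement and not the spread between cultures.

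On the arrays as a whole, 13014 named genes had a probe well above background on at least 1 array. HOTAIR had a signal of 107.8 with #1 siHOTAIR and 243.9 with siGFP, a log2 ratio of -1.22 ± 0.13 from 1 spot, in the direction of the label. The reference genes lay close to 0, with GAPDH at -0.00 ± 0.02 and ACTB at -0.02 ± 0.04. Of the SCLC markers, NEUROD1 and YAP1 were well above background on both arrays, CHGA and 1 probe of NCAM1 only with #1 siHOTAIR, and POU2F3, INSM1 and SYP on neither. Of the epithelial genes, KRT8 and KRT18 passed on both arrays and EPCAM only with siGFP. Of 9 markers of blood, fibroblasts and endothelium, 4 were well above background (PTPRC by 1 of its probes on both arrays, CD68, COL1A1 and COL1A2), and CD3E, DCN, LUM, PECAM1 and VWF were not. COL1A1 had a log2 ratio of 0.96 ± 0.09 and COL1A2 of -0.04 ± 0.02, and the part of other cell types in the results was not tested.

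Ribosomal proteins assemble on ribosomal RNA in the nucleolus into a small subunit, which reads the mRNA, and a large subunit, which joins the amino acids. The mRNAs of these proteins are among the most abundant of a growing cell and are known for a run of pyrimidines at the very 5′ end, the 5′ terminal oligopyrimidine (TOP) tract. Through this tract their translation, and in some conditions their stability, follows the kinase mTOR and the RNA-binding protein LARP1. An array measures the amount of the mRNA and not its translation.

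The start of transcription was read for the members from RefSeq (build GRCh38.p14), which had an entry for 62 of the 77 genes. The windows below are 30 bases long, 15 before and 15 from the annotated first base of the mRNA, in the direction of transcription. Capitals mark the longest run of C and T in the window. The first are members with high or low ratios, shown so that the tract can be set beside the values given further on. RPL4 lies at chr15:66504841-66504870 (minus strand), RPL26 at chr17:8383179-8383208 (minus), RPS12 at chr6:132814554-132814583 (plus), RPL15 at chr3:23916530-23916559 (plus, 1 of 3 annotated starts), RPL36A at chrX:101390996-101391025 (plus), RPS14 at chr5:150449725-150449754 (minus) and RPS25 at chr11:119018329-119018358 (minus).
RPL4: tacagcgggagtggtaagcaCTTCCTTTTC
RPL26: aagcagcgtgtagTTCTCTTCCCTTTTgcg
RPS12: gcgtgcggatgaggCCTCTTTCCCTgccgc
RPL15: ggcgctggggcctgctggaggagCTTCacg
RPL36A: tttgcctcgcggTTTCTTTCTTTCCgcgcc
RPS14: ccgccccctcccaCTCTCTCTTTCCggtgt
RPS25: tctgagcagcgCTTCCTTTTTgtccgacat
In RPL26, RPS12, RPL36A, RPS14 and RPS25 the run crossed the annotated start, and in RPL4 and RPL15 the capitals lay after it.

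The next windows are 2 members with many repeated spots, RPS6 at chr9:19380222-19380251 and RPLP0 at chr12:120201097-120201126 (both minus), and the pairs of RPS27 and RPL22 with a paralog, which show how the start of a member and of its copy differ. RPS27 lies at chr1:153990747-153990776 (plus), RPS27L at chr15:63157463-63157492 (minus), RPL22 at chr1:6199581-6199610 (minus) and RPL22L1 at chr3:170870181-170870210 (minus).
RPS6: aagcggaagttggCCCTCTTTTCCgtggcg
RPLP0: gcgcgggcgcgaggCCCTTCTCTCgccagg
RPS27: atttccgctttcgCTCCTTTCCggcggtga
RPS27L: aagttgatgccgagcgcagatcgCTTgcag
RPL22: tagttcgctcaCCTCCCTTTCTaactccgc
RPL22L1: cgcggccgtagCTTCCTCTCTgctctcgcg
The run of RPS27 crossed the annotated start while the longest run of RPS27L, of 3 bases, lay after it, and in RPL22 and RPL22L1 the run crossed the start in both.

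A C at the annotated start followed by at least 4 pyrimidines was present in 46 of the 62 members (74.2%), against 5.14% of 27305 genes in the same table. The share was 28 of 38 in the large and 18 of 24 in the small subunit, and the run had a median length of 8 bases in the members that held one. Genes of mitochondrial ribosomal proteins held it in 6 of 69 cases (8.70%), and genes of translation factors and other textbook TOP mRNAs in 11 of 13 (84.6%). Literal words in the same 30-base window differed likewise. CTTTC was found in 31 of the 62 members and 5.49% of all genes on the transcribed strand, and in 3.23% against 4.05% on the opposite strand. CTCTT was found in 43.5% against 5.33%, CCTTT in 43.5% against 4.68% and CTTCC in 38.7% against 9.12% on the transcribed strand. These words overlap each other inside 1 tract and are no independent counts.

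**Figure D1:**
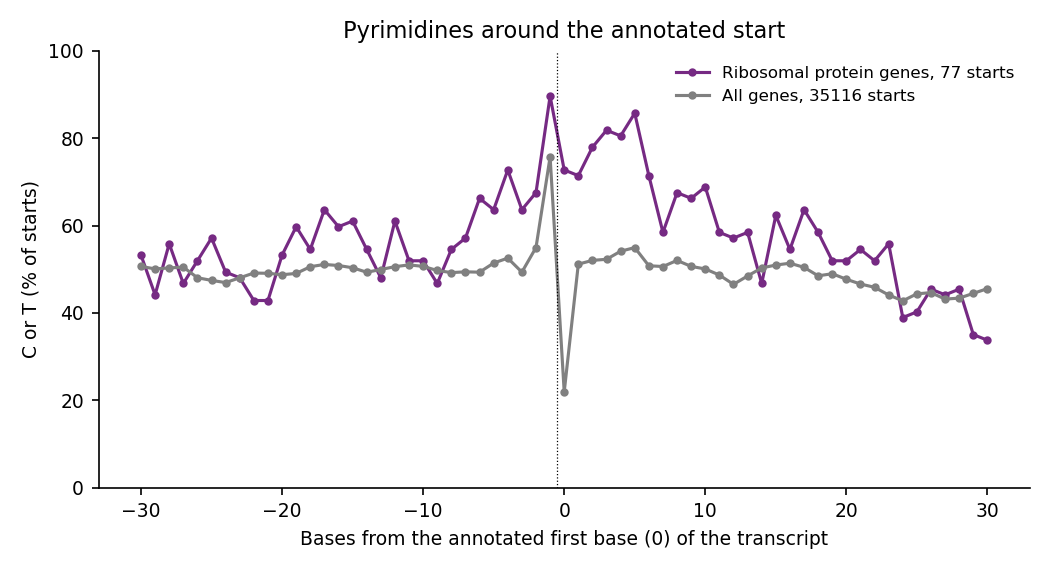
Percent of annotated starts with C or T at each base from 30 before to 30 after the first base of the transcript (base 0), for 77 starts of 62 ribosomal protein genes (purple) and 35116 starts of all genes (grey). At base 0 the members were at 72.7%, and over the next 6 bases they lay between 71.4% and 85.7%, above the grey line.

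All 77 members passed the background filter on both arrays, and none of them reached a 1.5-fold difference in either direction. Of all genes compared, 8.12% were at least 1.5-fold higher and 8.71% at least 1.5-fold lower with #1 siHOTAIR, and 2.74% and 3.41% passed 2-fold. Most members are bright, and among genes of a mean level of 4 or more (log2 units above the 75th percentile) the shares were smaller, 2.11% and 1.63% past 1.5-fold and 0.383% and 0.191% past 2-fold. At a level of 6 or more, where 75 of the members lie, 2 of 191 other genes were at least 1.5-fold higher and 2 lower. None of these 191 passed 2-fold, so genes of like signal seldom passed either mark. Also by single probes no member passed 1.5-fold: the 148 member probes well above background ranged from -0.46 to 0.41.

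Within this narrow range most members were a little lower with #1 siHOTAIR. The median log2 ratio of the 77 genes was -0.10, a difference of -6.88%, with quartiles of -0.16 and -0.04, and 62 were below 0 and 15 above. Of all genes compared, 47.7% were below and 52.3% above 0, and of those at a level of 4 or more, 56.4% were below and 43.6% above. The median followed the scaling and was 0.034 when the arrays were scaled on their spike-in RNA, which set the median of all genes at 0.16, -0.025 after quantile normalization and -0.017 after a loess fit of the ratio on the level. Relative to the median of all genes (0.02), the members' median was -0.12 in the main scaling. In the main scaling a ratio over 2 SD of the measurement was seen in 41 members, 4 above and 37 below 0. The share of all genes past the same mark was not computed, so these counts cannot be called particular to the members. This SD does not cover the shifts between scalings.

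The subunits were described side by side. The 46 genes of the large subunit had a median of -0.11 (-7.43%, 10 above and 36 below 0), and the 31 genes of the small subunit one of -0.08 (-5.43%, 5 above and 26 below 0). The difference of -0.03 between the medians (large minus small) had no stable sign: it was 0.026 when each gene was read by the median of its probes, 0.027 by the probe of the largest ratio, 0.013 after quantile normalization and 0.0098 without the first rows of the array. Among the genes read on 2 or more spots the 9 of the large subunit had a median of -0.09 and the 12 of the small subunit one of -0.14, also the other way round. The large subunit ran from RPL15 at -0.40 to RPL4 at 0.31, and the small subunit from RPS25 at -0.29 to RPS20 at 0.41.

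**Figure D2:**
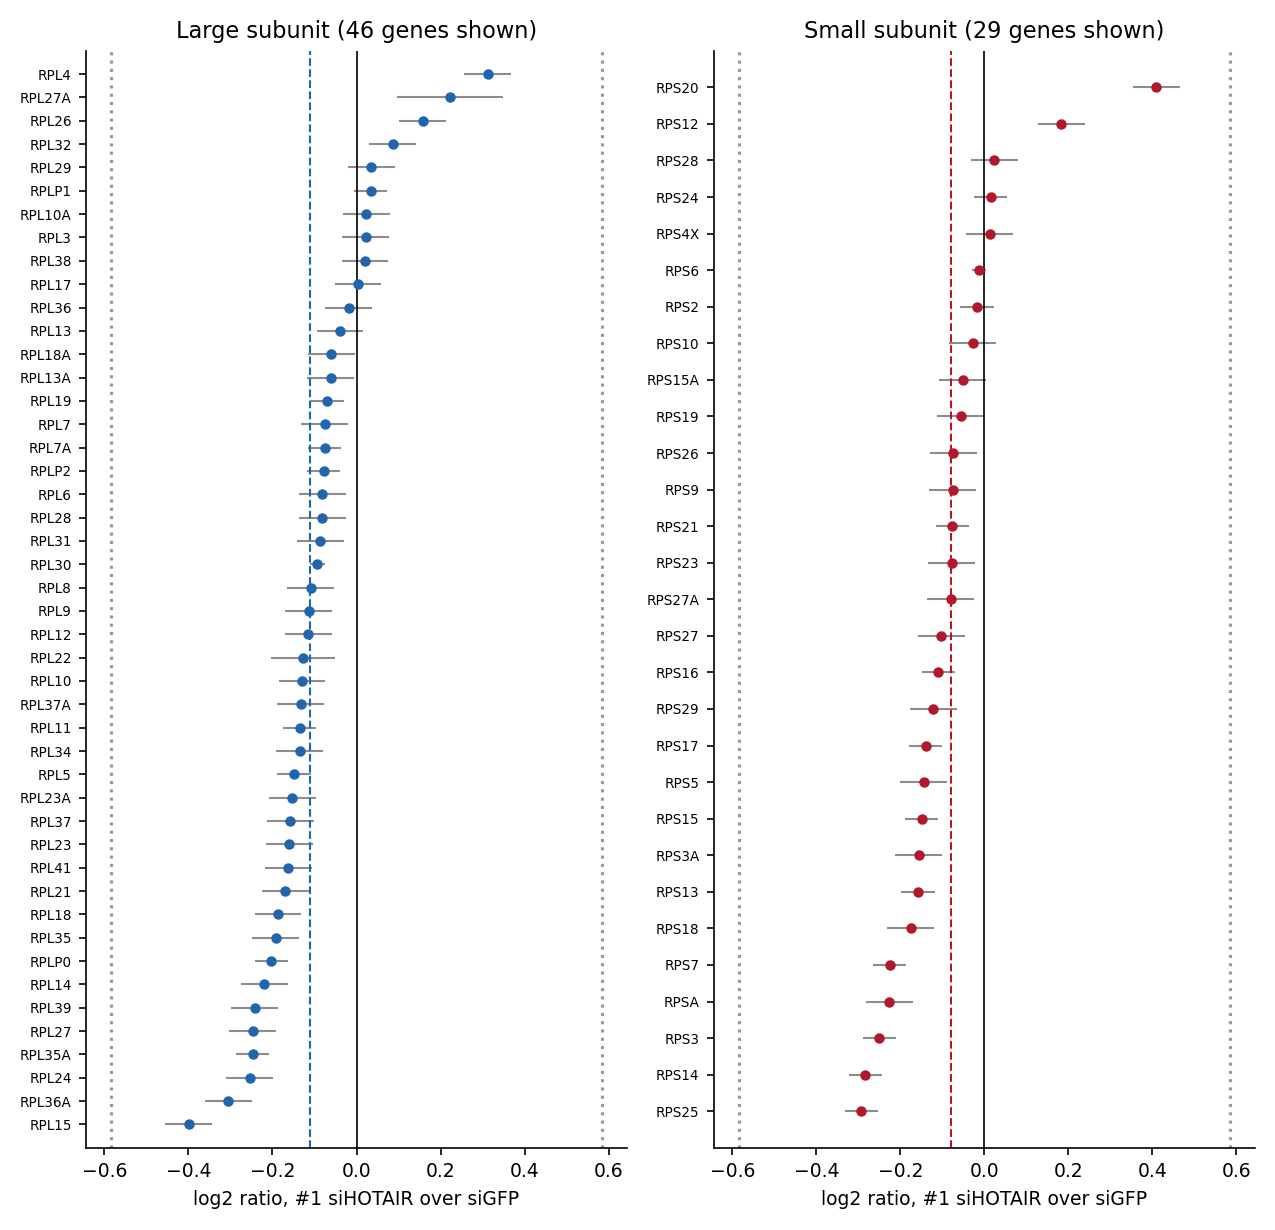
Log2 ratio of 75 of the 77 genes (x axis), ordered within the large (left, blue) and the small subunit (right, red). Points are the brightest probe of the gene, bars 1 SD of the measurement, dashed lines the medians of all genes of the subunit, -0.11 and -0.08, and dotted lines 1.5-fold, which no gene reached.

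Among the large subunit genes with the highest ratios, RPL4, whose protein reaches into the tunnel through which the new peptide leaves, had a signal of 94204 with #1 siHOTAIR and 73514 with siGFP on its single spot. This gave a ratio of 0.31 ± 0.06, 0.41 above the median of the members. RPL26, which lies near the exit of the tunnel and is known to bind the p53 mRNA, had 101970 and 88528 and a ratio of 0.16 ± 0.06, while its second probe was at -0.01. RPL32 had signals of 141092 and 128727 and a ratio of 0.09 ± 0.06. RPL29 had 69140 and 65363 and a ratio of 0.04 ± 0.06, which did not exceed the measurement error. RPL27A, the member with the lowest signals (312.8 and 259.7 on 1 spot), was at 0.22 ± 0.13, and it was the sole member with a level below the 75th percentile. Only RPL4 and RPL26 of these 5 exceeded 2 SD of the measurement.

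At the low end of the large subunit, RPL15, a core protein that is mutated in some families with Diamond-Blackfan anaemia, had a signal of 90699 with #1 siHOTAIR and 115898 with siGFP, a ratio of -0.40 ± 0.06. Its second probe, at 7027 and 8200, gave -0.27, so both probes were lower. RPL36A followed with 122806 and 147008 and a ratio of -0.31 ± 0.06. RPL24, which forms a bridge to the small subunit, had 110482 and 127646 and a ratio of -0.25 ± 0.06, with -0.29 on its second probe. RPL35A was at 202042 and 232277 (-0.25 ± 0.04, 2 spots of -0.36 and -0.13), and RPL27 at 124159 and 142736 (-0.25 ± 0.06). All 5 stayed below 0 in each of the 15 other settings of the processing.

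In the small subunit RPS20, a protein of the head of the subunit, stood apart from the rest. Its signal was 239558 with #1 siHOTAIR and 174708 with siGFP, a ratio of 0.41 ± 0.06 or 32.8% higher, which was 0.51 above the members' median and rested on 1 spot. RPS12 came next with 97825 and 83467, a ratio of 0.18 ± 0.06, also on 1 spot. The other genes at this end lay within the measurement error of 0: RPS28 at 0.02 ± 0.06 (246982 and 235421), RPS24 at 0.02 ± 0.04 (118951 and 114004) and RPS4X, the X-linked form of this protein, at 0.01 ± 0.06 (80536 and 77309). RPS20 and RPS12 were thus the sole genes of their subunit more than 2 SD above 0.

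At the low end of the small subunit, RPS25, which is known for its part in initiation at viral internal entry sites, had a signal of 197181 with #1 siHOTAIR and 234055 with siGFP. Its ratio was -0.29 ± 0.04, the mean of 2 spots that stood far apart, -0.50 and -0.09. The SD of these 2 spot ratios was 0.29, so the value of 0.04, drawn from other probes, is too small for this gene. RPS14, the ribosomal gene of the 5q- syndrome, had 120584 and 142197 and a ratio of -0.28 ± 0.04, with -0.36 on its second probe. Its 2 spots, at -0.34 and -0.23, were both lower. RPS3, which lines the entry of the mRNA channel, was at 43792 and 50450 (-0.25 ± 0.04, spots of -0.28 and -0.22). RPSA, also known as the laminin receptor precursor, had 116320 and 131808 and a ratio of -0.23 ± 0.06, and its 4 probes all lay between -0.23 and -0.17.

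Grouped by role, the genes stayed in the same range. In the P stalk, which recruits the GTPase elongation factors, RPLP1 was at 0.03 ± 0.04 (229986 and 217667), RPLP2 at -0.08 ± 0.04 (213553 and 218319) and RPLP0 at -0.20 ± 0.04 (199183 and 222079). Each was read on 2 spots, which were at 0.16 and -0.10 for RPLP1, -0.01 and -0.14 for RPLP2 and -0.21 and -0.20 for RPLP0, so the spots of RPLP1 disagreed in sign and both spots of RPLP0 were the lowest. The 5S particle, whose proteins bind MDM2 when ribosome assembly is disturbed, had RPL5 at -0.15 ± 0.04 (108538 and 116552) and RPL11 at -0.14 ± 0.04 (137785 and 146595). Both were lower by close values, near the members' median of -0.10, although the dimmest of the RPL5 probes was at 0.01. On the spike-in RNA RPL5 was at -0.011 and RPL11 at 0.0019. Of the 8 genes of the peptide tunnel and its exit, 3 were above and 5 below 0 with a median of -0.08, and this group held the range from RPL39 at -0.24 to RPL4 at 0.31. RPL17 in it was at 0.00 on its brightest probe, with -0.23 and -0.13 on its other probes, RPL19 at -0.07, RPL31 at -0.09, RPL23A at -0.15 and RPL35 at -0.19.

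The 4 genes along the mRNA channel were all below 0 in the main scaling, as were 80.5% of all members. RPS2 was at -0.02 ± 0.04, RPS23 at -0.08 ± 0.06, RPS15 at -0.15 ± 0.04 and RPS3 at -0.25 ± 0.04. On the spike-in RNA RPS2 was at 0.12 and RPS23 at 0.06, with RPS15 at -0.01 and RPS3 at -0.11. RPS2 had signals of 416048 and 407951. Its 3 probes lay on both sides of 0, at -0.04, -0.02 and 0.06. RPS27A, made as a fusion with ubiquitin, was at -0.08 ± 0.06 (87728 and 89856). Some ribosomal proteins carry another symbol and so are no members. Of these, FAU was at -0.13 ± 0.04 and RACK1 at 0.08 ± 0.04, on opposite sides of 0. Of a list of 10 genes mutated in Diamond-Blackfan anaemia, a failure of red cell formation caused by loss of 1 copy of a ribosomal protein gene, 2 were above and 8 below 0, with a median of -0.11. RPL15 at -0.40, described above, was not on this list. The listed genes ran from RPL35A at -0.25 to RPL26 at 0.16, and RPS19, the gene first tied to the disease, was at -0.06 ± 0.06 (186726 and 188057).

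Of the members named for their high signals, RPL41, which encodes a very short basic peptide, had 291497 and 316116 (-0.16 ± 0.06). Of those named for low signals, RPL22, which binds a small RNA of Epstein-Barr virus and is known from T cell development, had 33765 and 35725 on its brightest probe and a ratio of -0.13 ± 0.08. Its second probe, with a median of 2911 and 2188 over 2 spots, was at 0.37, with spots of 0.25 and 0.50, so the 2 probes of RPL22 disagreed in sign. Of the 150 probes, 2 were not well above background on either array, 1 of RPL10 and 1 of a transcript variant of RPL28, and both genes had other probes that were.

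Probes with many spots show how closely repeated spots of 1 probe lay together within these arrays. The probe of RPL30 had 10 spots with signals from 101377 to 109873 (median 107003) with #1 siHOTAIR and from 106029 to 113939 (median 110183) with siGFP. After scaling all 10 spot ratios were below 0, with a mean of -0.09 and an SD of 0.03, although the raw signals of both arrays overlapped. The scaling decided this sign, with 0.044 on the spike-in RNA, -0.015 after quantile normalization and -0.017 after loess. RPS6, the protein phosphorylated by the S6 kinases, had 10 spots of 140271 to 157674 (median 152732) against 136554 to 156647 (median 146725). Its spot ratios had a mean of -0.01 with an SD of 0.03, 4 above and 6 below 0, so no difference was detectable in the main scaling, whereas it was at 0.12 on the spike-in RNA, 0.07 after loess and 0.06 after quantile normalization. RPLP0 had 9 usable spots on its second probe, of 96474 to 116977 (median 112874) against 129049 to 135859 (median 133262), which did not overlap. They gave a mean of -0.30 with an SD of 0.08 and a lowest spot of -0.51, and the 2 spots of the brighter RPLP0 probe were at -0.21 and -0.20.

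Among the 27 member probes with 2 spots, the spot ratios differed by a median of 0.05, and in 24 of them both spots lay on 1 side of 0. These 24 include the RPL10 probe that was not well above background on either array, with spots of 0.33 and 0.39. The same share over all probes was not computed. The widest gap, 0.88, was on a dim probe of RPS26 with median signals of 114.7 and 140.6. Most genes were read on 1 spot, 56 of 77, and these included RPS20, RPL4, RPS12 and RPL15. The 21 genes read on 2 or more spots had a median of -0.14, 2 above and 19 below 0, and their highest was RPLP1 at 0.03. The 56 genes on 1 spot had a median of -0.08, 13 above and 43 below 0, so each member above 0.05 was read on 1 spot.

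Different probes of 1 gene were compared for the 37 genes with more than 1 probe at a level of 2 or more, 103 probes in all. The SD between probes of a gene was 0.08 and the SD between the genes' means was 0.10, so probes of 1 gene varied nearly as much as genes did. In the main scaling all probes were below 0 in 26 of the 37 genes, and in none were all above. The same share over all genes with several probes was not computed. These signs depend on the scaling, and on the spike-in RNA RPL13A and RPL31, for example, were above 0 (0.08 and 0.05). RPL21 had 9 probes, all below 0, from -0.28 to -0.06. RPS3A had 5 probes from -0.19 to -0.14, RPL39 had 4 from -0.32 to -0.20, and RPL24, RPL35, RPL23, RPS18 and RPS14 were below -0.15 on both probes. By the mean of its probes RPL26 was the highest, with 0.16 and -0.01, and RPL29 had 4 probes from -0.00 to 0.04. The probes disagreed most for RPS23 (-0.46 at signals of 4105 and 5480, against -0.08 at 115905 and 118500), RPL28 (-0.43 and -0.08) and RPL13 (-0.32 and -0.04), and in each of these the dimmer probe was the lower. With dimmer probes included, RPL22 (0.37 on the dimmer and -0.13 on the brighter probe) and RPL37 (0.31 at signals of 451.5 and 352.7, and -0.16 at 87838 and 94906) disagreed more widely and in the other direction. Many ribosomal protein genes have processed copies of near-identical sequence in the genome, and whether a probe also bound such transcripts was not tested.

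**Figure D3:**
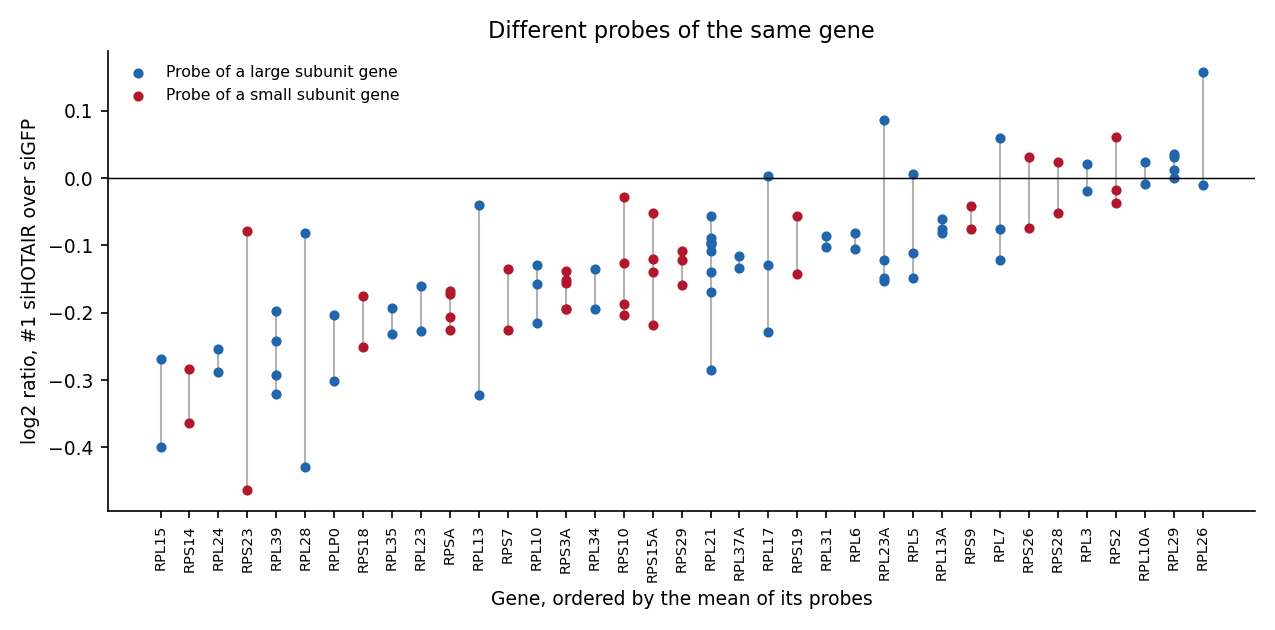
Log2 ratio (y axis) of each probe at a level of 2 or more for the 37 genes with several such probes, ordered by the mean of the probes (x axis), blue for large and red for small subunit genes. Grey lines join the probes of 1 gene, and in 26 genes all points lie below 0.

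Because the members are bright, they were set beside other genes of like signal. Of 266 genes at a level of 6 or more, 75 were members (28.2%). The other 191 had a median of -0.03 with quartiles of -0.15 and 0.08, and 58.6% of them were below 0, against 80.5% of all members. Between levels 6 and 7 the 8 members had a median of -0.04 and 115 other genes one of -0.03. Between levels 7 and 8 the 34 members had a median of -0.13 and 56 other genes one of -0.03, and between levels 8 and 9 the 32 members had -0.08 and 17 other genes -0.01. The members' median was below that of the 191 other bright genes by 0.08, and by 0.05 to 0.09 over all 16 settings. The interquartile range was 0.12 in the members and 0.23 in the other bright genes. What part the brightness of a probe has in these values was not tested beyond this comparison.

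**Figure D4:**
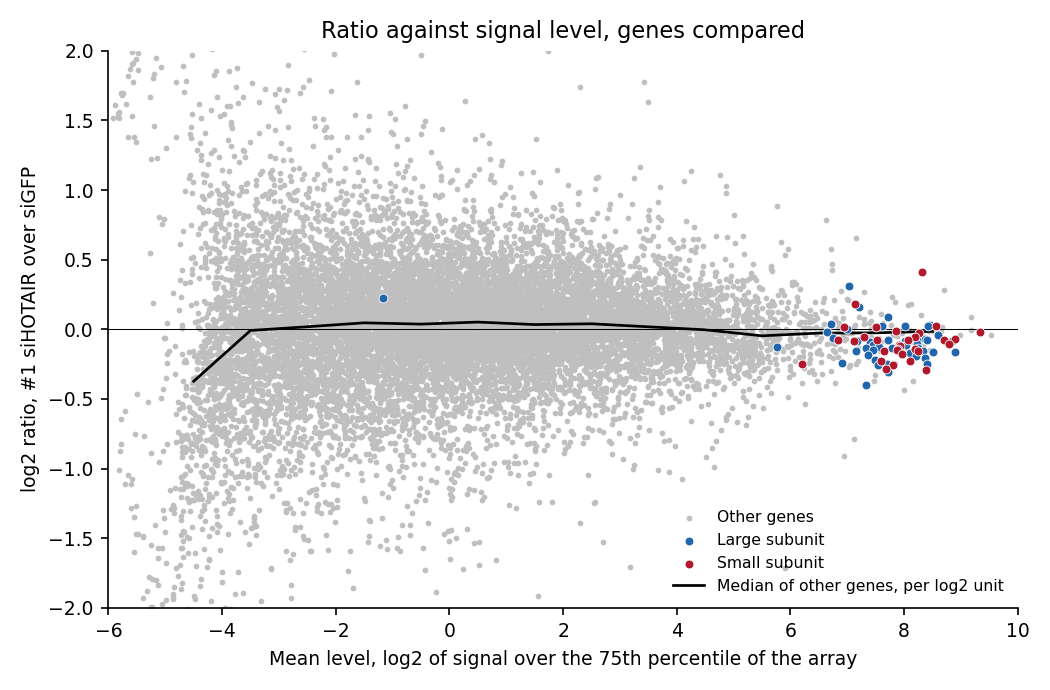
Log2 ratio (y axis, shown from -2 to 2) against the mean level of both arrays (x axis, log2 over the 75th percentile) for the genes compared, with other genes in grey, large subunit genes in blue and small subunit genes in red. The black line is the median of other genes per log2 unit of level, and 75 of the 77 members lie at a level of 6 or more, with RPL27A far to the left.

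Other genes of protein synthesis were more widely spread than the members. The 76 genes of mitochondrial ribosomal proteins, which translate the mRNAs of the mitochondrial genome, had a median of 0.04 with quartiles of -0.18 and 0.21. Of these, 2 were at least 1.5-fold higher, MRPL34 (12295 and 7716, 0.63 ± 0.08) and MRPL14 (5711 and 3653, 0.60 ± 0.08), with MRPL44 next at 0.54 ± 0.09. In the other direction 3 were at least 1.5-fold lower, MRPL23 (1987 and 5040, -1.39 ± 0.08), MRPL24 (6627 and 13084, -1.03 ± 0.08) and MRPS18B (17158 and 26409, -0.67 ± 0.08), each on 1 spot. Over all genes compared, the shares past 1.5-fold were 8.12% higher and 8.71% lower. Their median was 0.14 above that of the members, and by 0.05 to 0.17 over the 16 settings. The mitochondrial genes were dimmer, with a median level of 3.71 against 7.85, and the part of the lower signal in their wider spread was not tested.

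The 8 paralogs of ribosomal proteins had a median of -0.21. RPS27L, a p53-induced copy of RPS27, was the lowest of them with 33967 and 46045 and a ratio of -0.48 ± 0.08, while RPS27 itself had 278817 and 290031 and -0.10 ± 0.06. RPL22L1, which can take the place of RPL22, had 24774 and 19662 and a ratio of 0.29 ± 0.08. RPL26L1 (-0.29), RPL39L (-0.28), RPL7L1 (-0.26), RPL10L (-0.15) and RPL36AL (-0.04) were below 0, and RPL3L, the form of heart and skeletal muscle, was at 0.20 ± 0.27 with signals of 171.3 and 144.3. Each paralog was read on 1 spot and none reached 1.5-fold.

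The 21 genes of translation factors and other textbook TOP mRNAs, of which 13 had an annotated start and 11 of these the tract, had a median of 0.02, with 12 above and 9 below 0. EEF1A1, the elongation factor that carries aminoacyl-tRNA, was at 0.18 with its 5 probes from 0.18 to 0.27, and EEF2, the translocase, at 0.23 ± 0.04 (49012 and 40349). NAP1L1 was at 0.35 ± 0.08. EIF4A2, a helicase of initiation, was at 1.09 ± 0.06 (9016 and 4111, 2.12-fold higher). It was the sole gene of the list past 1.5-fold, while 8.12% of all genes compared were at least 1.5-fold higher. EIF3D (-0.34 ± 0.08), NPM1, a nucleolar chaperone (-0.21 ± 0.06), and EEF1B2 (-0.14 ± 0.04) were the lowest. The elongation factors of the list thus lay on both sides of 0.

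Of 17 regulators of TOP mRNAs, 12 were above and 5 below 0 (median 0.08), while 52.3% of all genes compared were above 0. Their median level was 2.10, and other genes between levels 2 and 3 had a median ratio of 0.04. None of the 17 reached 1.5-fold, against 8.12% higher and 8.71% lower among all genes compared. The highest of the 17 were subunits of the mTOR complex, MLST8 (3259 and 2303, 0.45 ± 0.08), MTOR (440.1 and 346.1, 0.30 ± 0.09) and RPTOR (1877 and 1504, 0.27 ± 0.06). The lowest were the translation repressors EIF4EBP2 (9102 and 10442, -0.24 ± 0.02, 10 spots) and EIF4EBP1 (-0.11 ± 0.05), and TSC1 (-0.10 ± 0.09). A dimmer probe of EIF4EBP2, at 2145 and 2131, gave -0.04 ± 0.06. TSC2 was at 0.24 ± 0.09 on its brighter probe and at -0.11 ± 0.27 on a dim one. These are levels of mRNA and hold nothing on the activity of the kinase.

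Of 39 genes of ribosome biogenesis, 25 were above and 14 below 0 (median 0.07), while 52.3% of all genes compared were above 0. NOB1, the nuclease that cuts the last precursor of 18S rRNA, had 2533 and 1353 on 10 spots and a ratio of 0.86 ± 0.03, which is 1.81-fold higher. RRP12 (0.42 ± 0.09) and POLR1B, a subunit of RNA polymerase I (0.39 ± 0.06), came next. RRN3, which ties RNA polymerase I to its promoter, had 216.5 and 325.3 and a ratio of -0.63 ± 0.09, 1.55-fold lower, with TAF1A (-0.28 ± 0.06) and EIF6 (-0.18 ± 0.05) after it. NOB1 and RRN3 were thus the genes of this list past 1.5-fold, in opposite directions. Among all genes compared, 8.12% were that much higher and 8.71% that much lower. The lists of protein synthesis other than the paralogs had medians above that of the members.

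**Figure D5:**
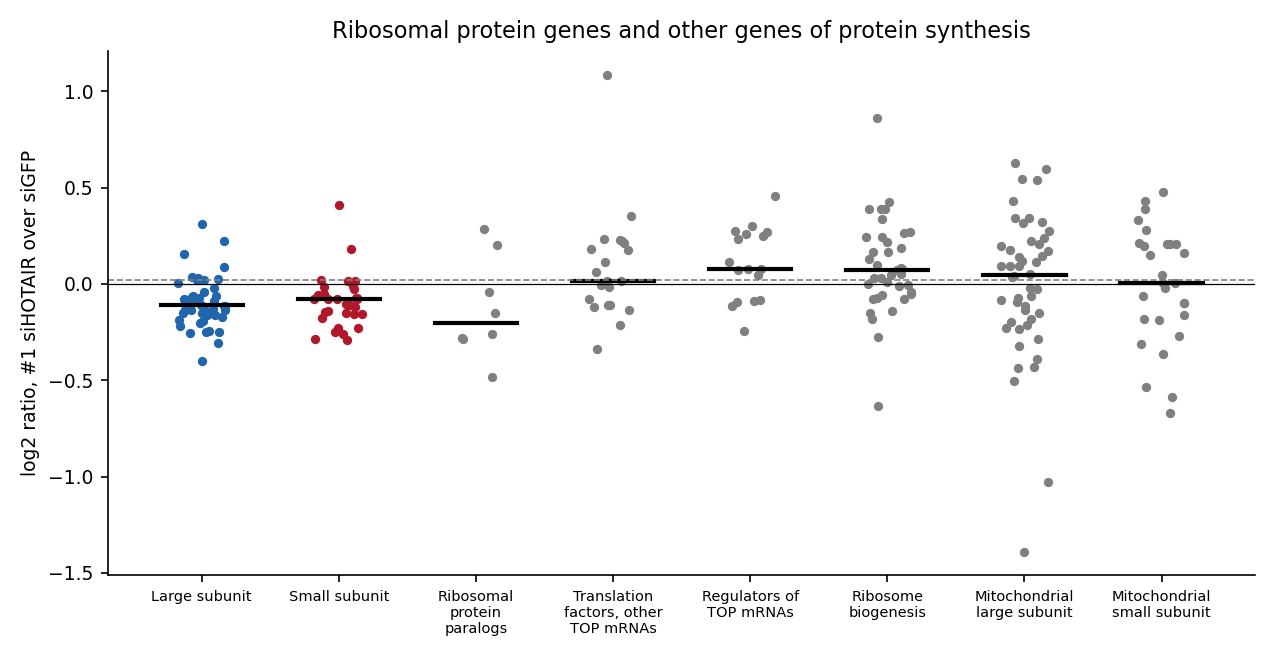
Log2 ratio (y axis) of each gene of 8 lists (x axis), with the members in blue and red, other lists in grey, list medians as black bars and the median of all genes compared, 0.02, as a dashed line. The members lie between -0.40 and 0.41, and the mitochondrial genes between -1.39 and 0.63.

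The tract at the annotated start was set beside the ratios. The 46 members that held it had a median of -0.11, 7 above 0, with quartiles of -0.18 and -0.06 and a range from -0.31 (RPL36A) to 0.22 (RPL27A). The 16 members without it had a median of -0.07, 7 above 0, with quartiles of -0.13 and 0.02, and they held both RPL15 at -0.40 and RPL4 at 0.31, whose windows are shown above. The 15 members with no entry in the table had a median of -0.11, 1 above 0, and included RPS20 at 0.41. A higher share of the members without the tract was thus above 0, and the difference was not tested. Many of these signs lay within 1 SD of the measurement. Without the tract these were RPL17 (0.00), RPS4X (0.01), RPL3, RPS28 and RPL10A (0.02 each). With the tract these were RPL29, RPLP1, RPL38 and RPS24. The signs also depended on the scaling, so the 2 shares cannot be told apart from measurement error. RPL26 and RPS12, above 0, and RPL36A, RPS14 and RPS25, below it, all had a tract across the start.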

How the data were processed

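Total RNA of #1 siHOTAIR-transfected and siGFP-transfected SBC-3 cells was labelled with Cy3 and hybridized to SurePrint G3 Human arrays, and the spots were read by the authors with Agilent Feature Extraction 10.10.1.1. This intensity, deposited as processed signal, had been background-subtracted and detrended but not normalized between arrays. The deposited value table holds the background-subtracted intensity. Spots numbered 62976, of which 58717 were not controls; 393 and 375 outlier spots were left out and none was saturated. The number of arrays, 1 per condition, limits the precision.

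Signals were divided by the 75th percentile of the array and taken as log2. Repeated spots were averaged. The filter kept probes that exceeded background in at least 50% of their spots on 1 array or more, and a gene was read by its probe with the highest mean level. Symbols came from RefSeq accessions. The SD of a ratio came from the median spot SD of probes with repeated spots at the same level. No test was possible, and lists are described by counts and medians. Named were the 5 highest and 5 lowest members of each subunit, the 3 brightest and 3 dimmest, the role lists, the paralogs and the 3 highest and lowest genes of other lists. Members, lists and settings were chosen with earlier results of these data known. Some items the rule names are not reported here. RPL22 and the genes with repeated spots were added after their values were seen. Alternatives used limma 3.58.1 in R 4.3.3; normexp was run on the median spot signal with an offset of 50, since the files used hold no mean signal. The processing was tested on simulated data in which changes larger than 1.5-fold were planted in bright probes. That simulation did not cover ratios as small as those of the members, nor the shifts between scalings.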

Additional observations from a re-analysis of the deposited data

How the results depend on the processing

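No paired analysis was possible because each condition had 1 array. The members were recomputed in 15 other settings, of which the loess fit without member probes, like the restriction to members with 2 or more spots, was chosen after seeing the data. In all of them 0 members passed 1.5-fold or 2-fold in either direction; the highest ratio was 0.55 for RPS20 with spike-in scaling. The sign of most members depended on the setting. Above 0 in every setting that read them were 7: RPL4, RPL26, RPL27A, RPL32, RPLP1, RPS12 and RPS20. Of these, RPL26, RPL32, RPLP1 and RPS12 had spots only in the first rows of the array and no value without those rows. Another 26 were below 0 in every setting that read them, and 44 did neither. The share of all genes that kept 1 sign was not computed. Spike-in scaling moved the median of all genes from 0.02 to 0.16 and gave medians of 0.026 (large subunit), 0.057 (small subunit) and 0.18 (mitochondrial), with 63.6% of members above 0. Relative to the median of all genes the members' median stayed below 0, from -0.21 (no filter) to -0.02 (loess). Loess gave -0.022 and -0.0094 for the large and small subunit with 44.2% above 0, and loess without member probes -0.032 and -0.017 with 39.0%. Quantile normalization gave -0.023 for the large subunit with 36.4% above 0, and scaling on the median of probes well above background gave 10.4% above 0. With the probe of the largest ratio the small subunit was at -0.14, and with 2 or more spots also at -0.14. The difference of the subunit medians was 0.026 with the median of the probes and 0.027 with the probe of the largest ratio. Without the first rows of the array, which left 67 members, the mitochondrial median was -0.023, and RPL22, read by 1 spot of its second probe, was at 0.50. Scaling on the spike-in RNA adds 1 value to every gene; the cause of the other shifts was not tested. Over the settings the list medians ran from -0.26 to -0.07 (paralogs), -0.01 to 0.15 (translation factors and other TOP mRNAs), 0.05 to 0.22 (regulators) and 0.04 to 0.21 (biogenesis).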

Other observations

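The array also held 22 probes whose accessions led to ribosomal protein pseudogenes, and 18 of them passed the background filter. Their median log2 ratio was -0.10, close to that of the members, with a range from -0.40 (RPL23AP53, signals of 1434 and 1828) to 0.33 (RPL23AP64, 107.7 and 83.1). Several had signals as high as those of members, such as RPS2P32 with 114597 and 111865 on 1 probe (-0.01) and 76245 and 73244 on another (0.01), RPL23P8 with 77639 and 79227 (-0.08) and RPL19P12 with 72436 and 77490 (-0.14). Whether these probes read the pseudogene transcript or the mRNA of the parent gene was not tested.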
